A study of Homo sapiens with 3 samples.

Results

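The NuA4-TIP60 complex is a large histone acetyltransferase assembly, followed here through 10 of its genes: KAT5, TRRAP, EP400, DMAP1, ING3, MRGBP, MORF4L1, BRD8, EPC1 and YEATS4. They were chosen by name, as genes of this complex, with earlier results of these data known. All 10 were found among the 20449 genes and microRNA genes of the deposited guide tables. Together they had 29 guides, 3 for each gene and 2 for TRRAP, and 28 of the guides passed the filter of at least 10 normalized reads at day 0. A RefSeq gene table places the genes on chromosomes 11 (KAT5), 7 (TRRAP and ING3), 12 (EP400 and YEATS4), 1 (DMAP1), 20 (MRGBP), 15 (MORF4L1), 5 (BRD8) and 10 (EPC1).

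The cells were NUGC3, an established human gastric cancer line, carrying a pooled GeCKO library of guide RNAs, which lead the nuclease Cas9 to their target genes, with 1000 non-targeting guides beside them. The groups were cells given 10 nM RTX up to day 14, cells given only the solvent DMSO up to day 14, and the day 0 cells, each sequenced as 1 library of genomic DNA. RTX is not spelled out in the labels, and the series title concerns antifolate drugs. The groups follow the sample titles, since a treatment note gives the day 0 group 14 days of DMSO. All groups share the same cell line and guide library, and a guide's reads count the cells that carry it, whether or not every copy of the gene was disrupted. With 1 library per condition no difference has a replicate check, and no test of the conditions was possible.

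As background, NuA4-TIP60 acetylates the tails of histones H4 and H2A through its catalytic subunit KAT5, also called TIP60, and opens chromatin at promoters and at DNA breaks. KAT5 also acetylates other proteins, among them the DNA damage kinase ATM. TRRAP is the very large scaffold through which activators, MYC among them, recruit the complex, and EP400 is an ATPase that places the histone variant H2A.Z. The other subunits hold the catalytic core together, read histone marks or are shared with the SRCAP remodeller.

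Depth was similar in the libraries, with 17344507 reads in RTX, 18805737 in DMSO and 16547572 at day 0 over 62916 guides. The 28 guides of the complex had a median of 259 reads in RTX, 254.5 in DMSO and 306.5 at day 0, against 233, 252 and 231 for all guides with a target. Each ratio is a log2 ratio of deposited normalized values with a pseudocount of 5 added to both, which makes ratios of guides with few reads too small, and the guides' median ratio is the score of their gene. Guides with no target in the genome spread with an SD of 0.64 in RTX over DMSO, 0.53 in DMSO over day 0 and 0.56 in RTX over day 0 (991 guides). Their central 95% lay between -1.31 and 1.17, between -0.97 and 1.11, and between -1.01 and 1.05 in those comparisons. Their medians were -0.10, 0.19 and 0.11, so a value closer to 0 than these can turn its sign when libraries are scaled to the non-targeting guides. With no test to use, a score or guide ratio of at least 2-fold, which is 1 on the log2 scale, was counted and set against the percent of all genes or guides past it.

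Which knockouts were relatively more or less abundant under the drug was read at day 14, in RTX over DMSO. Cells carrying guides against TRRAP and EP400 were more abundant in RTX, with scores of 1.75 and 1.38. DMAP1, at 0.99, lay just under 2-fold, and YEATS4 stood at 0.74. KAT5 itself, EPC1 and MORF4L1 had scores below 0, between -0.42 and -0.20. In all, 2 of the 10 genes were at least 2-fold higher, where 2.75% of 20150 genes were, and 0 were at least 2-fold lower, where 0.844% of genes were. The median over the 10 genes was 0.50, with 7 above 0 and 3 below, beside a median of -0.00248 over all genes. With the mean over guides in place of the median, EP400 at 0.55 was no longer past 2-fold, DMAP1 at 1.55 was, and KAT5 stood at 0.59.

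Without drug, in DMSO at day 14 against day 0, YEATS4, TRRAP and MRGBP were the members past 2-fold, all lower, at -1.60, -1.06 and -1.04. This is 3 of 10 genes, where 3.42% of all genes were at least 2-fold lower, and 0 of 10 were at least 2-fold higher, where 0.109% were. The median over the members was -0.54, with 7 below 0 and 3 above, beside -0.000889 over all genes. With a pseudocount of 20 only YEATS4 stayed past 2-fold, and with the mean over guides DMAP1 (-1.16) passed and MRGBP (-0.88) did not.

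In RTX at day 14 against day 0 the median over the members was 0.01, with 5 genes on each side of 0, beside -0.0049 over all genes. YEATS4 alone passed 2-fold there, lower at -1.25, so 1 of 10 genes was lower, where 1.39% of genes were, and 0 were higher, where 0.62% were. With the mean over guides YEATS4 stood at -0.84 and 0 members passed. Each of the comparisons shares a library with each of the others, so their values are given side by side and not as support for one another.

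**Figure D1:**
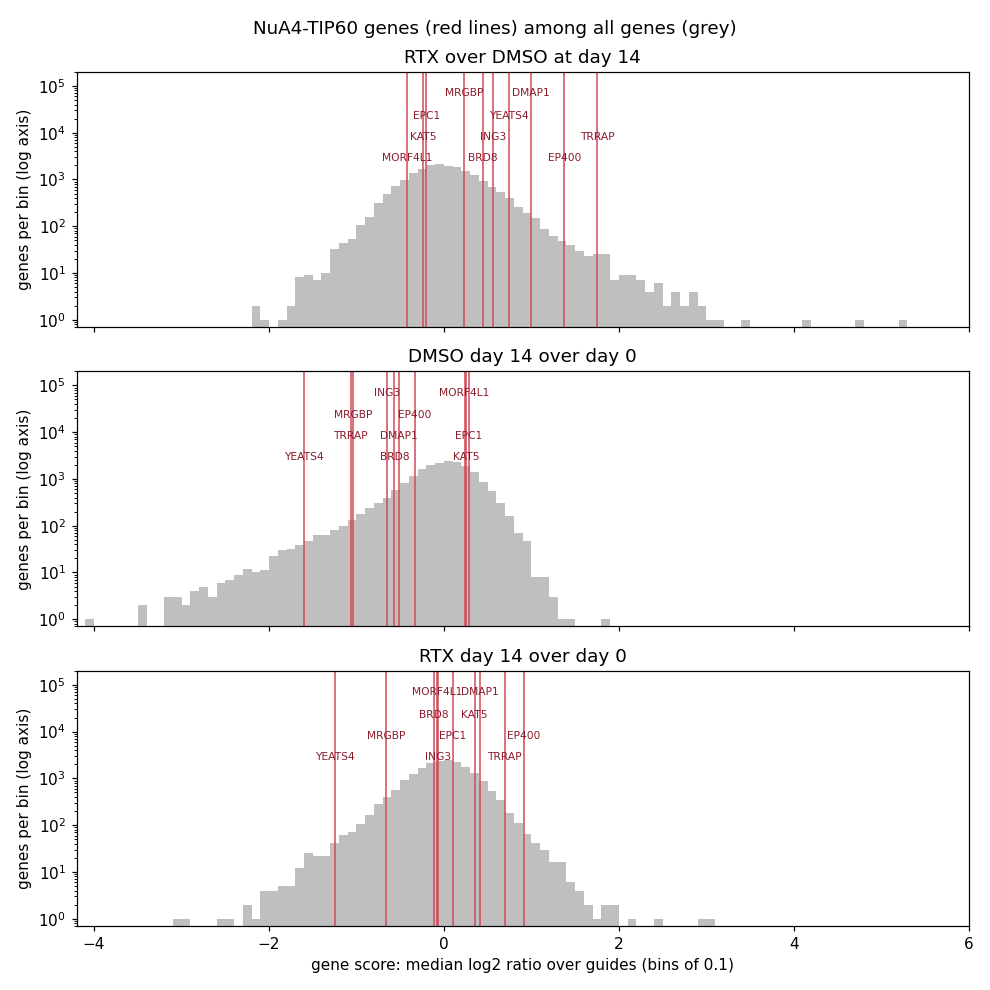
The horizontal axis is the gene score, the median log2 ratio over a gene's guides, and the vertical axis is the number of genes per bin of 0.1 on a log axis, for all 20150 genes in grey and the 10 NuA4-TIP60 genes as red lines. TRRAP and EP400 lie far to the right in RTX over DMSO (1.75 and 1.38), and YEATS4 lies to the left in both comparisons with day 0 (-1.60 in DMSO and -1.25 in RTX).

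The scaffold of the complex, TRRAP, had its guide 59088 at 103 reads in RTX, 13 in DMSO and 57 at day 0. Guide 59087 of TRRAP had 179, 111 and 116 reads in RTX, DMSO and at day 0. Both guides were therefore higher in RTX than in either other library, with 59088 low in DMSO. Their log2 ratios in RTX over DMSO were 2.70 and 0.80, and 99.5% of all genes had a lower score than TRRAP. The score in DMSO over day 0 was -1.06, from guides at -1.92 and -0.21, and in RTX over day 0 it was 0.70, from guides at 0.79 and 0.60. TRRAP rests on these 2 guides, and its guides had fewer reads at day 0 (173 summed) than those of any other member. Its score is the mean of the 2, and guide 59087 by itself lay under 2-fold in every comparison. Most genes it is ranked against, 18094 of 20150, were scored as the middle of 3 guides.

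EP400, which remodels nucleosomes, had a pair of guides that went together and another that did not. Guide 15234 had 924 reads in RTX, 389 in DMSO and 394 at day 0, and guide 15233 had 845, 343 and 444. Guide 15232 instead had 26 reads in RTX, 70 in DMSO and 80 at day 0. The first pair was thus highest in RTX, while 15232 was lowest there. Their log2 ratios in RTX over DMSO were 1.38, 1.43 and -1.15, and the score of 1.38 exceeded that of 98.9% of genes. In DMSO over day 0 the guides lay between -0.52 and -0.18 with a score of -0.33. In RTX over day 0 the score was 0.91, above 99.1% of genes, with guides from -1.46 to 1.21. That range of 2.67 among 3 guides was wider than in most genes, since 1.37% of 18094 genes with 3 guides had a wider one.

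**Figure D2:**
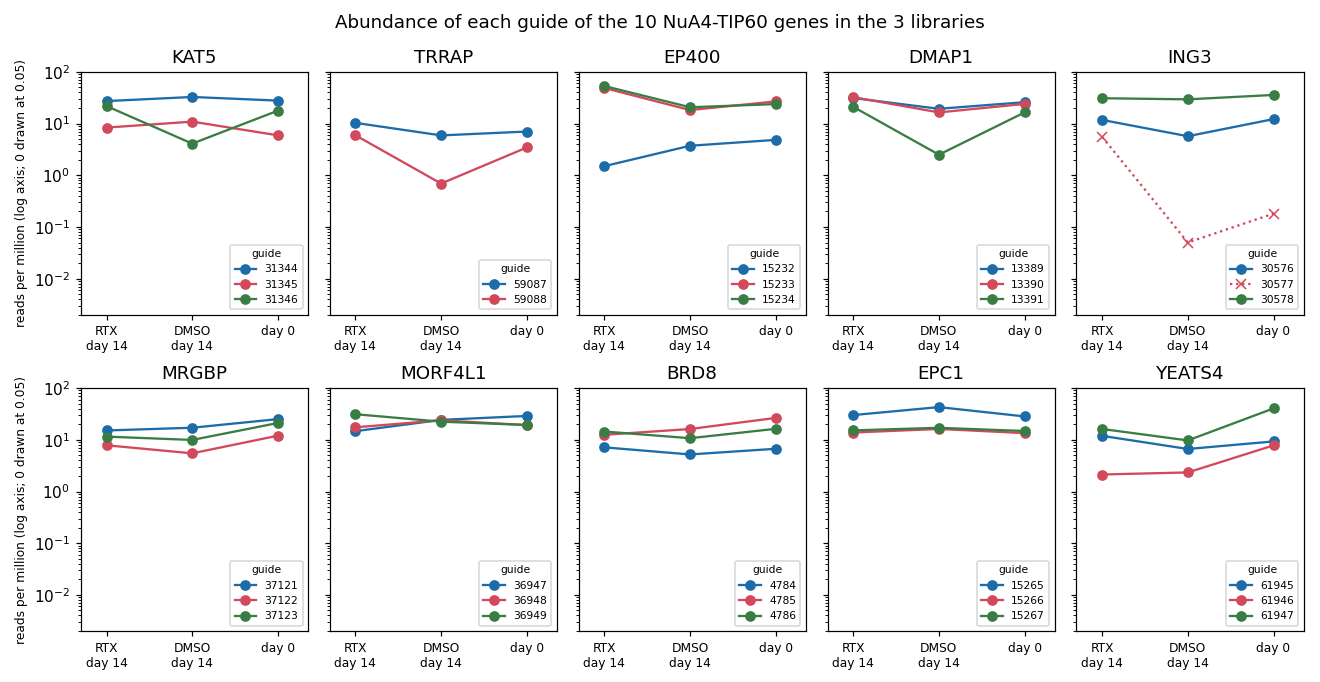
Each panel is a gene, the horizontal axis gives the library, and the vertical axis gives reads scaled to the depth of that library (RPM) on a log axis, with 1 line per guide. The guides 31346 of KAT5, 59088 of TRRAP and 13391 of DMAP1 dip in DMSO, and the dotted line is the ING3 guide left out by the filter on day 0 reads, whose 0 reads in DMSO are drawn at 0.05.

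The catalytic core holds KAT5, the acetyltransferase, EPC1, which bridges KAT5 to the rest of the complex, and ING3, a reader of methylated histone H3. Guide 31346 of KAT5 had 378 reads in RTX, 77 in DMSO and 294 at day 0. Guide 31344 had 472, 615 and 460, and guide 31345 had 145, 205 and 98. So 31346 was low in DMSO, and the other two were highest there. The log2 ratios in RTX over DMSO were 2.36, -0.24 and -0.35, so the score of -0.24 does not carry the first guide. They were -2.02, 0.26 and 0.87 in DMSO over day 0, and 1.69% of genes with 3 guides had a wider range than this 2.89. In RTX over day 0 all 3 guides were above 0, between 0.03 and 0.54, with a score of 0.35.

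EPC1 had guides that kept close together. Its guide 15265 had 522 reads in RTX, 807 in DMSO and 469 at day 0, guide 15266 had 240, 305 and 223, and guide 15267 had 264, 321 and 245. All 3 were highest in DMSO. In RTX over DMSO the log2 ratios were -0.48, -0.20 and -0.14, in DMSO over day 0 they were 0.62, 0.29 and 0.23, and in RTX over day 0 they were 0.15, 0.10 and 0.10. All of these EPC1 values lie within the central 95% of the non-targeting guides. Its paralog EPC2, which can take the place of EPC1 in the complex, had scores of -0.13, 0.56 and 0.27 in the same comparisons.

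ING3 was scored on 2 guides. Guide 30576 had 204 reads in RTX, 107 in DMSO and 202 at day 0, and guide 30578 had 536, 553 and 592. The first was thus low in DMSO, and the second was nearly level. Their log2 ratios were 1.04 and 0.09 in RTX over DMSO, -1.04 and -0.26 in DMSO over day 0, and 0.01 and -0.15 in RTX over day 0. The scores were 0.56, -0.65 and -0.07. The third guide, 30577, had too few reads at day 0 to enter, and with it the score in RTX over DMSO was 1.04, which is past 2-fold.

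DMAP1 and YEATS4 also belong to the SRCAP remodeller, which deposits H2A.Z, and YEATS4, also known as GAS41, reads acylated histone tails. Guide 13391 of DMAP1 had 365 reads in RTX, 47 in DMSO and 272 at day 0. Guides 13390 and 13389 had 563 and 541 reads in RTX, 309 and 363 in DMSO, and 397 and 429 at day 0. All 3 were highest in RTX and lowest in DMSO, and 13391 dipped most. The log2 ratios in RTX over DMSO were 2.96, 0.99 and 0.71, and the score of 0.99 exceeded that of 97.2% of genes. They were -2.56, -0.51 and -0.40 in DMSO over day 0, with a score of -0.51. In RTX over day 0 the guides lay between 0.32 and 0.49, a span of 0.17, and 96.6% of genes with 3 guides spanned more.

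YEATS4 had the lowest score of the members in both comparisons with day 0. Its guide 61947 had 281 reads in RTX, 183 in DMSO and 670 at day 0, guide 61946 had 37, 44 and 129, and guide 61945 had 207, 125 and 154. The first pair was highest at day 0, and 61945 was highest in RTX. In DMSO over day 0 the log2 ratios were -2.001, -1.60 and -0.44, and 0.998% of genes had a lower score than its -1.60. In RTX over day 0 they were -1.25, -1.68 and 0.41, and 0.625% of genes had a lower score than its -1.25. In RTX over DMSO the score was 0.74, with guides at 0.74, -0.10 and 0.84.

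**Figure D3:**
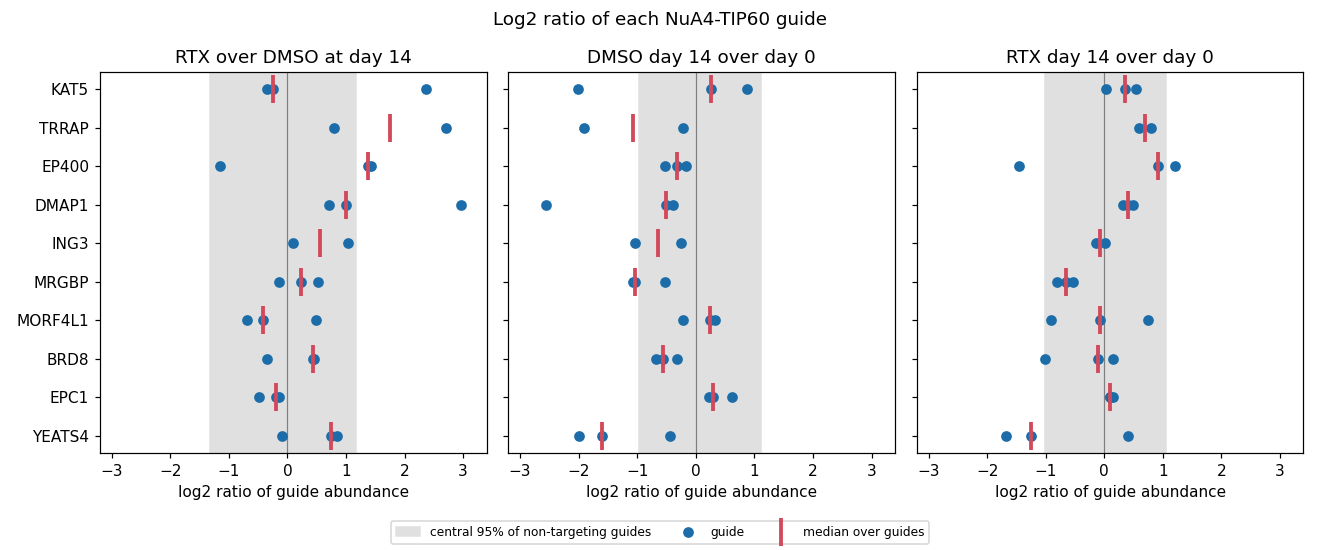
Each point is a guide that passed the filter, placed by its log2 ratio on the horizontal axis, with a row for each gene, a red bar at the median over its guides and a grey band for the central 95% of the non-targeting guides. In RTX over DMSO 5 guides, of KAT5, TRRAP, EP400 and DMAP1, lie to the right of the band and 0 to its left (5.65% and 2.51% of all targeting guides), in DMSO over day 0 there are 0 to its right and 8 to its left (1.52% and 8.05%), and in RTX over day 0 there are 1 and 3 (2.72% and 5.16%).

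MRGBP, MORF4L1 and BRD8 form a submodule, in which MORF4L1, also called MRG15, reads methylated histone H3, BRD8 carries a bromodomain and MRGBP joins them. MRGBP guides 37121, 37122 and 37123 had 263, 136 and 200 reads in RTX, 322, 103 and 187 in DMSO, and 416, 199 and 350 at day 0. All 3 were highest at day 0, with both later libraries below it. The log2 ratios were -0.52, -1.07 and -1.04 in DMSO over day 0 and -0.66, -0.54 and -0.80 in RTX over day 0, where the score was -0.66. In RTX over DMSO the score of MRGBP was 0.23.

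BRD8 guides 4784, 4785 and 4786 had 124, 217 and 251 reads in RTX, 98, 304 and 202 in DMSO, and 111, 439 and 270 at day 0. In DMSO over day 0 all 3 were below 0, from -0.68 to -0.32, with a score of -0.57. The score was 0.44 in RTX over DMSO and -0.11 in RTX over day 0, where guide 4785 stood at -1.01.

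MORF4L1 guides 36947, 36948 and 36949 had 255, 303 and 542 reads in RTX, 457, 449 and 422 in DMSO, and 479, 319 and 320 at day 0. They did not go one way, since 36949 was highest in RTX and 36947 was lowest there. The scores were -0.42 in RTX over DMSO, 0.24 in DMSO over day 0 and -0.08 in RTX over day 0. Its paralog MORF4L2 stood at 0.11, 0.22 and 0.29.

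Counting error alone was small beside the largest of these differences. With the reads of a gene's guides summed, TRRAP had 282 reads in RTX and 124 in DMSO, a log2 ratio of 1.33 with an exact binomial 95% interval of 1.02 to 1.64. EP400 had 1795 and 802 reads in RTX and DMSO, with a summed ratio of 1.30 (1.18 to 1.42), and DMAP1 had 1469 and 719, with 1.17 (1.04 to 1.30). For KAT5 the summed ratio was 0.29 (0.16 to 0.42), of opposite sign to its score. YEATS4 in DMSO over day 0 gave -1.60 (-1.78 to -1.42). TRRAP and MRGBP, past 2-fold by score in that comparison, were under it when summed, at -0.64 (-0.98 to -0.30) and -0.82 (-0.96 to -0.67). In RTX over day 0 the summed ratio of YEATS4 was -0.87 (-1.02 to -0.71), beside its score of -1.25. These intervals cover counting error only, and guide abundance is read from PCR products without molecular identifiers.

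Of the 28 guides, 6 were at least 2-fold higher in RTX than in DMSO (21.4%), where 7.95% of all targeting guides and 4.24% of non-targeting guides were. They belonged to EP400 (2 guides), KAT5, TRRAP, DMAP1 and ING3. Guide 15232 of EP400 was the 1 guide at least 2-fold lower, where 5.42% of targeting guides were. In DMSO over day 0, 8 guides were at least 2-fold lower (28.6%), where 7.61% of targeting and 2.02% of non-targeting guides were, and 0 were higher, where 2.3% of targeting guides were. They belonged to YEATS4 and MRGBP (2 guides each), KAT5, TRRAP, DMAP1 and ING3. In RTX over day 0, 4 guides were lower, where 5.36% of targeting guides were, and 1 was higher, where 3.18% were. Guides of 1 gene share their target and are not replicates of a condition.

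A count model made fewer calls than the 2-fold limit. An exact test in edgeR on the recovered whole reads, with 1 dispersion taken from the non-targeting guides, compares the 2 libraries and not the conditions. It called 3 of the 28 guides in RTX over DMSO, all higher, where 1.33% of targeting guides were called. These were guides 13391 of DMAP1 (edgeR adjusted p = 0.00253), 59088 of TRRAP (edgeR adjusted p = 0.00763) and 31346 of KAT5 (edgeR adjusted p = 0.0274). In DMSO over day 0 it called 4, all lower, where 2.23% were called. They were the same guides of DMAP1, KAT5 and TRRAP, and guide 61947 of YEATS4 (edgeR adjusted p = 0.0162). In RTX over day 0 edgeR called 0, where 0.86% were called. An unadjusted p under 0.05 was found by edgeR for 5 of the 28 guides in RTX over DMSO (4858 of 61547 targeting guides), 6 in DMSO over day 0 (5251 of 61547) and 4 in RTX over day 0 (4161 of 61547).

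In the authors' deposited tables, at an FDR under 0.05, 10, 7 and 8 of the 28 guides were called in RTX over DMSO, DMSO over day 0 and RTX over day 0. In the authors' deposited values 10 of these calls were higher and 0 lower in RTX over DMSO, 2 higher and 5 lower in DMSO over day 0, and 3 higher and 5 lower in RTX over day 0. Those tables, as the authors deposited them, called 18.2%, 15.5% and 15% of targeting guides and 13.6%, 18.5% and 14.9% of non-targeting guides.

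Other subunits of the complex, from a list of 10 further genes, were mixed. ACTL6A, an actin-related protein shared with the SWI/SNF remodellers, stood at 1.84 in RTX over DMSO, -1.43 in DMSO over day 0 and 0.34 in RTX over day 0. It was the 1 gene of that list past 2-fold in RTX over DMSO and in DMSO over day 0. Guide 619 of ACTL6A had 509 reads in RTX, 143 in DMSO and 352 at day 0, guide 620 had 580, 175 and 456, and guide 621 had 687, 675 and 655. The paired ATPases RUVBL1 and RUVBL2, which assemble several remodellers, stood at -0.34 and -0.27 in RTX over DMSO, and VPS72, an H2A.Z chaperone, at 0.00498. The list's median was -0.06 in RTX over DMSO, -0.26 in DMSO over day 0 and -0.35 in RTX over day 0.

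The lists for complexes that share subunits with NuA4-TIP60 leave out shared subunits such as TRRAP, DMAP1 and YEATS4. Medians over their remaining genes were closer to 0 than those of the members in RTX over DMSO and in DMSO over day 0. These differences were not tested. The 16 SRCAP and INO80 genes had medians of 0.09, -0.24 and -0.01 in RTX over DMSO, DMSO over day 0 and RTX over day 0. In that list YY1, a DNA-binding subunit of INO80, was past 2-fold, lower in RTX over DMSO (-1.61) and in RTX over day 0 (-1.68). YY1 guide 62044 went the other way in these comparisons, at 0.77 and 0.56. SRCAP itself stood at -0.40, -0.39 and -0.44, with its guide 54220 at 2.41 in RTX over DMSO. The 18 SAGA genes, whose complex also uses TRRAP, had medians of 0.21, -0.14 and 0.07. Of these, TAF5L, a core subunit, stood at 1.11 and ATXN7L3, of the deubiquitinating module, at -1.39 in RTX over DMSO, where guide 55531 of TAF5L was below 0 (-0.25).

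The 21 genes of other histone acetyltransferases and their partners had medians of 0.24, 0.11 and 0.11 in RTX over DMSO, DMSO over day 0 and RTX over day 0, with 0 past 2-fold in RTX over DMSO. BRPF1, a scaffold of KAT6A complexes, and KANSL3, a partner of KAT8, stood at -1.34 and -1.08 in DMSO over day 0, and TAF1, a subunit of TFIID, at -1.06 in RTX over day 0. Guide 4839 of BRPF1 was above 0 in DMSO over day 0, at 0.76, and guide 31334 of KANSL3 stood at -0.04. Of the 11 histone deacetylase genes, which remove what acetyltransferases add, HDAC3 stood at 1.09 in RTX over DMSO, and the list's medians were 0.12, 0.07 and 0.25. HDAC3 guides 21008, 21009 and 21010 stood at 1.09, 1.92 and 0.15 in RTX over DMSO. The 10 partners of KAT5 in the DNA damage response had medians of 0.25, -0.43 and -0.24, with ATM at -1.04 in DMSO over day 0. That ATM score lies between guides of opposite sign, 3523 at 0.18 (514 reads in DMSO and 407 at day 0) and 3524 at -2.25 (27 and 133 reads), and the remaining guide, 3525, left out by the filter with 2 reads at day 0, stood at 1.75.

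MYC, which recruits TRRAP, stood at 2.30 in RTX over DMSO, -1.39 in DMSO over day 0 and 1.20 in RTX over day 0. The MYC guides 37951, 37952 and 37953 had 575, 179 and 511 reads in RTX, 268, 36 and 90 in DMSO, and 246, 117 and 219 at day 0. All 3 were highest in RTX. The list of MYC, MAX and MYCN had medians of 0.22, -0.40 and 0.14, which are the scores of MAX, the dimer partner of MYC. In RTX over DMSO its guide 35735 stood at 3.24, and guides 35736 and 35737 stood at 0.11 and 0.22.

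**Figure D4:**
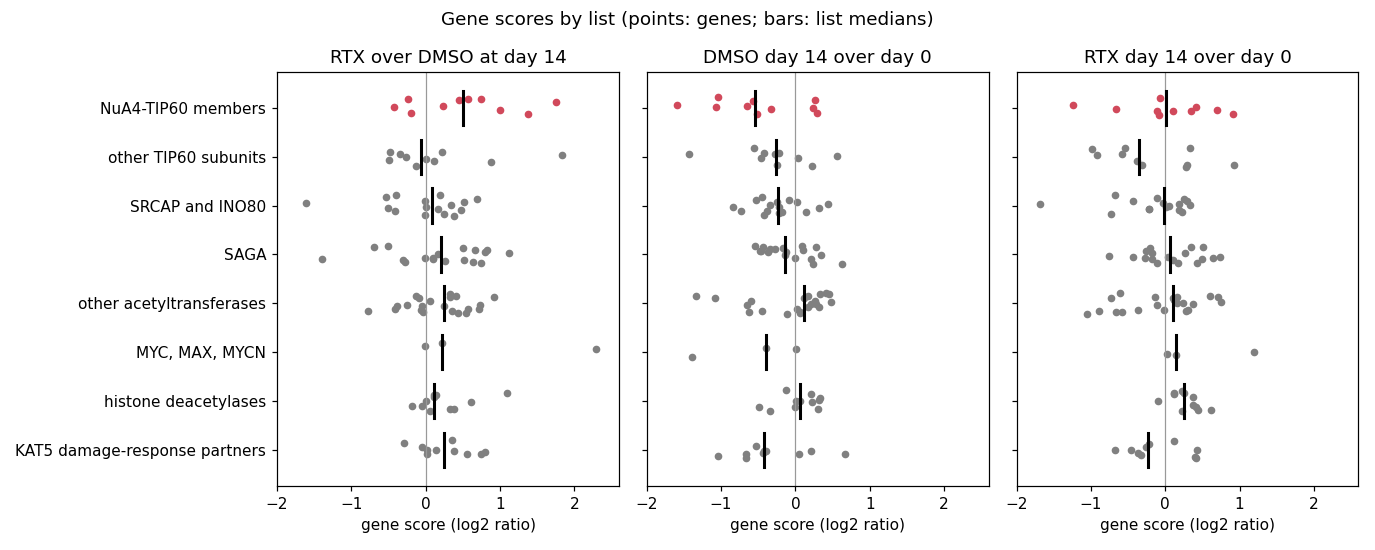
Each point is a gene placed by its score (log2 ratio) on the horizontal axis, each row is a list, and black bars are list medians. The NuA4-TIP60 members have a median of 0.50 in RTX over DMSO, -0.54 in DMSO over day 0 and 0.01 in RTX over day 0, and the point at 2.30 in the MYC row is MYC.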

How the data were processed

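The authors deposited 3 guide tables, 1 per pair of libraries, made with MAGeCK 0.5.7 (build hg19), per the submitters' processing notes. The matching of reads to guides is not described in these sources. Values of both libraries stand beside an FDR (q-value) for every guide, per the file headers, and the authors deposited them as a signal of abundance scaled by 1 factor per library and pair. Dividing by the value of 1 read gave whole reads for at least 99.9968% of values of every column (tolerance 0.1), and the 2 tables of a library gave the same reads for every guide. Non-targeting guides and 23 date-like names (72 guides) entered no gene score, and a gene needed at least 2 guides. Scores were computed with pandas 2.3.3, intervals with scipy 1.17.1, and the count test with edgeR 4.0.16. The limit of that test was an adjusted p under 0.05 over the targeting and non-targeting guides past the filter. Scripts were tested on simulated data. Alternatives were other pseudocounts, filters, scalings and fold limits, the mean over guides, the count test and the authors' FDR. The members and the 7 lists (90 genes, 89 found) were chosen with earlier results of these data known. Named were all members and, from the lists, up to 3 genes past 2-fold and 7 genes fixed by name. The values of SRCAP and MAX and the single guides of list genes were added after they were seen. Guides are called by the number in their name, without leading zeros. Chromosomes are from RefSeq (GRCh38.p14), and no coordinates are given because the builds differ.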

Additional observations from a re-analysis of the deposited data

Results flagged for a closer look

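Guide 30577 of ING3, left out by the filter on day 0 reads, had 96 reads in RTX, 0 in DMSO and 3 at day 0. This is 35.3-fold higher in RTX than in DMSO if 3 reads are set in place of the 0 in DMSO. With the pseudocount of 5 used for the scores it is 21.3-fold, and error in the 96 reads enters neither value. The guide stands out because it carries a signal outside the values used for the scores. Of the 297 targeting guides left out by that filter, 3, this one included, had at least 96 reads in RTX.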

How the results depend on the processing

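No paired analysis was possible because each condition was 1 library. Of 210 single-member scores under other settings, 202 moved by less than the SD of the non-targeting guides over the square root of the gene's guide number, and none past 2-fold changed sign. The exceptions were ING3 without the filter and 7 values with the mean over guides: KAT5 (0.59), EP400 (0.55) and DMAP1 (1.55) in RTX over DMSO, KAT5 (-0.30) and DMAP1 (-1.16) in DMSO over day 0, and EP400 (0.22) and YEATS4 (-0.84) in RTX over day 0. Many of the 202 could not have moved further. A filter of 50 normalized reads left out no further member guide, and only ING3 gained a guide without the filter. Scaling to the non-targeting guides shifted all scores of a comparison alike, by less than that limit. For TRRAP and ING3, scored on 2 guides, mean and median are the same. Scaled to the non-targeting guides, the median over members was 0.61, -0.73 and -0.093 in RTX over DMSO, DMSO over day 0 and RTX over day 0, and that over all genes 0.10, -0.19 and -0.11; the percent of all genes past 2-fold was then 3.75 higher and 0.571 lower, 0.0347 and 5.33, and 0.402 and 1.95. Counts of members and guides past the limit changed by over 1.5 times as follows. For RTX over DMSO, a 1.5-fold limit gave 4 members higher and 11 guides higher, 2 lower and 13 in all. At that limit 9.97% of all genes were higher, and 33.6% of targeting guides were past it in either direction. A 3-fold limit gave 1 member and 3 guides higher, 0 lower and 3 in all, beside 0.71% of genes and 4.04% of targeting guides. A pseudocount of 20 left 0 guides lower (9.81% of targeting guides past 2-fold in either direction), and edgeR called 3 (1.33% of targeting guides). For DMSO over day 0, a pseudocount of 20 gave 1 member and 5 guides lower (5 in all). With it 2.46% of genes were lower and 7.08% of targeting guides past 2-fold in either direction. A 1.5-fold limit gave 2 guides higher. In either direction 11 guides were past that limit, beside 27.0% of targeting guides. A 3-fold limit gave 1 member and 5 guides lower (5 in all), beside 1.03% of genes lower and 3.32% of targeting guides. The count test in edgeR called 4 (2.23% of targeting guides). For RTX over day 0, 2 guides were higher without the filter. In either direction 6 guides were then past 2-fold, beside 8.72% of targeting guides. With the mean 0 members were lower, where 1.45% of genes were. In RTX over day 0 a 1.5-fold limit gave 2 members higher and 2 lower, and 5 guides higher, 7 lower and 12 in all. At that limit 4.38% of all genes were higher and 6.48% lower, and 25.8% of targeting guides were past it in either direction. A 3-fold limit gave 0 members, and 0 guides higher, 1 lower and 1 in all, while edgeR called 0 and the authors' deposited FDR 8. The causes of these changes were not tested, and few reads limit guides such as 59088 of TRRAP (13 in DMSO).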
